A study of Mus musculus with 9 samples.

Results

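Glycolytic enzymes, the transporters of glucose and lactate, and genes induced through hypoxia-inducible factor (HIF) were followed in cultured mouse spermatogonial stem cells (SSCs) treated to delete Prmt5, with and without a PRMT5 construct. The group was a list of 33 gene symbols, taken by symbol from a count table of 53801 genes, where they had 34 rows because Aldoa is listed under 2 identifiers. All 34 rows passed the filter on low counts. By its design text the series used mouse SSCs in culture whose genotype was Prmt5 flox/flox with Rosa26-CreERT2, a ubiquitous inducible Cre, and in which 4-hydroxytamoxifen (4OHT) at 1 µM activates the Cre recombinase and deletes Prmt5. There were 3 groups of 3 RNA-seq libraries. The 4OHT group had 4OHT alone. The MU group was read as knockout SSCs overexpressing a catalytically dead PRMT5 mutant, and the OE group as knockout SSCs overexpressing wild-type PRMT5. The labels give these constructs as abbreviations, so each comparison rests on that reading, and ethanol-treated SSCs with Prmt5 intact were not analysed here. All groups share the deletion, the drug and one cell source, and no source used here states whether the 3 libraries of a group came from separate cultures, so the p-values measure the spread between these libraries, which may be technical.

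Prmt5 itself stood at 31.9, 30.8 and 28.2 CPM (counts scaled to the size of the library) in the 4OHT libraries, at 145.2, 147.1 and 146.1 CPM with MU, and at 1072, 1071 and 1085 CPM with OE. The construct groups therefore lay above 4OHT in every library, and the OE libraries lay far above the MU libraries. Prmt5 transcript was still counted with 4OHT alone, and without intact control libraries the extent of the deletion was not measured here.

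Glycolysis splits glucose into pyruvate. Hexokinase traps the sugar in the cell, phosphofructokinase commits it, aldolase and triosephosphate isomerase cut and convert it, and the later enzymes up to pyruvate kinase yield ATP. Lactate dehydrogenase turns pyruvate into lactate, which leaves or enters the cell through monocarboxylate transporters. HIF-1 is a transcription factor whose alpha subunit is destroyed in the presence of oxygen after hydroxylation by the EGLN enzymes, and many genes of glucose uptake and glycolysis are among its targets. Since oxygen sets the HIF-1 alpha protein, the Hif1a mRNA is not a readout of HIF activity.

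The libraries held between 78751996 and 365719548 counts. Members ranged from Car9 and Ankrd37 at a few CPM to Pkm at 996 to 1771 CPM, and the second Aldoa identifier was at 0.0534 to 0.394 CPM. Markers of other cells moved with the groups. Of 16 feeder fibroblast markers, 15 were lower with MU and 15 were lower with OE than with 4OHT, and their summed level was 10642 to 12805 CPM with 4OHT, 5829 to 5909 CPM with MU and 4581 to 4650 CPM with OE. Of the 15 rows of macrophage markers 11 were higher and 3 lower with each construct, and of 14 spermatogonial markers 10 were higher and 3 lower with each. Over all genes tested, 29.5% were higher and 26.5% lower with MU, and 29.9% and 27.9% with OE, at an adjusted p under 0.05 by edgeR. The macrophage rows summed to 181.4 to 199.6 CPM, 1165 to 1198 CPM and 2248 to 2374 CPM in the same order, and the spermatogonial markers to 2561 to 2639 CPM, 3853 to 3952 CPM and 4111 to 4163 CPM. None of these markers was at 0 in a group, and Sertoli and endothelial markers were low throughout, with sums of at most 25.9 and 17.7 CPM. The SSCs of the study were grown on a layer of mouse embryonic fibroblasts. The part of such cells in the differences below was not tested, and in bulk RNA fewer cells of a type and less RNA per cell cannot be told apart.

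The promoters of 5 members are shown because they carry the core of the HIF response element while their transcripts moved in opposite directions. Slc16a1 and Bnip3 were higher with both constructs, whereas Slc16a3, Ldha and Pgk1 were lower. The sequences are the 200 bases upstream of a RefSeq start site in GRCm38.p6, 5′ to 3′ on the strand of the gene. Capitals mark ACGTG and GCGTG and their reverse complements CACGT and CACGC, and a run of CACGTG is ACGTG on both strands at once, which is also an E-box. The windows lie at chr3:104638464-104638663 (plus strand), chr7:138909507-138909706 (minus strand), chr11:120948867-120949066 (plus strand), chr7:46845604-46845803 (plus strand) and chrX:106186900-106187099 (plus strand).
Slc16a1: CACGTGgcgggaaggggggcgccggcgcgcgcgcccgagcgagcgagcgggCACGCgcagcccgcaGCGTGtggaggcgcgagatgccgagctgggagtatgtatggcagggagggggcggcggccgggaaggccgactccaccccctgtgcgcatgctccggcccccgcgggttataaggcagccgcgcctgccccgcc
Bnip3: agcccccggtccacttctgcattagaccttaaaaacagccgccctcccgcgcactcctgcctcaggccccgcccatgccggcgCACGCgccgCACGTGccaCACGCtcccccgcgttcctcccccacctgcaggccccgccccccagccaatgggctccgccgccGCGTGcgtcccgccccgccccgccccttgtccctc
Slc16a3: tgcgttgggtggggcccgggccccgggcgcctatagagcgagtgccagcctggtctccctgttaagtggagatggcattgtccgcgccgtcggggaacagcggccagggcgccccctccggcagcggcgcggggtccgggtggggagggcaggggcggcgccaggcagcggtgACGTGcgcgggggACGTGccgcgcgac
Ldha: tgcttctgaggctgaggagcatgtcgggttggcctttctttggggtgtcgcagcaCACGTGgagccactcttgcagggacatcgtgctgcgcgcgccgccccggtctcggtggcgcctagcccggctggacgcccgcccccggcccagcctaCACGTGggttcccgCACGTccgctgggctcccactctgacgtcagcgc
Pgk1: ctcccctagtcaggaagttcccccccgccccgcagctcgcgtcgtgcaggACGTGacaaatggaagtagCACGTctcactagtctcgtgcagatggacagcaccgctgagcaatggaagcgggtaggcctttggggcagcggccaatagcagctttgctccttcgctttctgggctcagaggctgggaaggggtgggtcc

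RefSeq promoter windows, from 250 bases before to 50 after a start, were at hand for 31 of the 33 members, in 45 windows. ACGTG on either strand was in 24 of the 45 windows (53.3%) against 19.6% of 32851 windows of the same length over all genes, GCGTG was in 25 (55.6%) against 32.4%, and one or the other was in 36 (80.0%) against 43.8%. By gene, 15 of the 17 members with a window that were lower with both constructs held one of the motifs, and so did 7 of the 7 that were higher with both. Among those 7, Gapdh turned lower once near-identical copies were added, and Pfkfb4 lost its call with OE in 14 of 17 alternative settings. A gene was counted by any of its windows, some of which overlap, and no share by gene over all genes was taken. The list was also made in part of HIF targets. The motif was thus present on both sides of the list, and it is a description of letters, not of a bound site.

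Against 4OHT, most members fell with each construct and a smaller set rose. With MU, 19 of the 34 rows were lower (55.9%) and 9 were higher (26.5%) at an adjusted p under 0.05 (edgeR's quasi-likelihood test, Benjamini-Hochberg over all genes tested). The background was large, since 26.5% of the 22452 genes tested were called lower and 29.5% higher in the same comparison. With OE, 19 rows were lower (55.9%) and 8 higher (23.5%), against 27.9% and 29.9% of all genes. The share called lower was above the background in both comparisons, and the share called higher lay below it. Abundant genes are called more often, so the 30 members with a mean of at least 10 CPM were also set beside the 10616 genes at that level. Of these members 63.3% were lower with MU and 63.3% with OE, against 37.0% and 36.8% of such genes, and 23.3% were higher in each, against 37.3% and 39.4%.

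The median log2 fold change of the members was -0.24 with MU and -0.29 with OE, where the median of all genes was 0.04 and 0.02. Both comparisons use the same 4OHT libraries and are not independent of each other. The same 18 members were lower in both (Adm, Aldoa, Eno2, Hif1a, Hk1, Hk2, Ldha, Ldhb, Ndrg1, Pfkl, Pfkm, Pgam1, Pgk1, Pkm, Slc16a3, Slc2a1, Tpi1 and Vegfa), and 8 were higher in both (Aldoc, Bnip3, Egln3, Gapdh, Pfkfb4, Pfkp, Slc16a1 and Slc2a3), where Gapdh turned lower once near-identical copies were added. Gpi1 was called lower with MU alone, P4ha1 lower with OE alone and Ankrd37 higher with MU alone. Some calls rested on the settings. Of 17 alternatives other than the test against a fold, Pfkfb4 with OE lost its call in 14, Gpi1 with MU in 11 (adjusted p 0.00575 to 0.871 over the 17) and Slc2a1 with MU in 9 (0.00228 to 0.618). Slc16a3 lost its call with MU without MU replicate 1 (-0.19, edgeR adjusted p = 0.0612), with library totals and without the filter. Ankrd37 lost its call without 4OHT replicate 3, MU replicate 1 or MU replicate 2 (adjusted p = 0.0928, 0.0679 and 0.0779, edgeR). Hk1 lost both calls with library totals. The second Aldoa row, Car9, Eno1, Pdk1 and Pfkfb3 were called in neither comparison in the main fit. Other settings on all 9 libraries also added calls. With MU, 1 member uncalled in the main fit was called under other size factors, library totals, DESeq2, no filter and counts divided by 4. With OE, 1 was called under other size factors, library totals, DESeq2 and the replicate block, and 2 with counts divided by 4. Against a fold of 1.5 in place of no change, edgeR called 0 members higher and 4 lower with MU and 1 higher and 7 lower with OE. The same test called 5059 of the 22452 genes with MU and 5645 with OE, both directions together. The share of members called in either direction was thus not above that of all genes. Libraries of the construct and of 4OHT did not overlap for 29 rows with MU and 28 with OE (85.3% and 82.4%), against 63.9% and 61.6% of all genes. This share was not taken among genes of at least 10 CPM, the level of most members, so the members are not matched for abundance here.

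**Figure D1:**
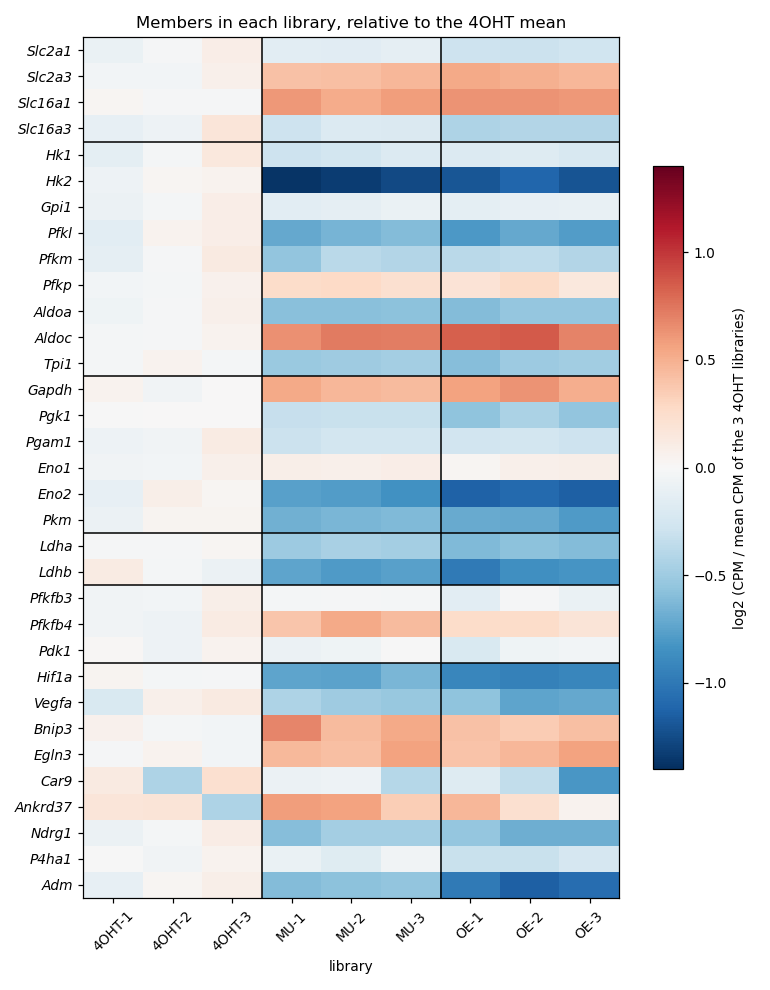
Colour gives the log2 ratio of each member's CPM in a library to its mean over the 3 4OHT libraries, with members in rows ordered by role (transporters, upper and lower glycolysis, lactate dehydrogenase, regulatory kinases, HIF genes) and the 9 libraries in columns; the second Aldoa identifier is left out for its low counts. Hk2, at a log2 fold change of -1.32 with MU and -1.17 with OE, is the darkest blue row, while Slc16a1, Slc2a3, Aldoc, Bnip3, Egln3 and the Gapdh row taken without its copies are red with both constructs.

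The transporters split in pairs. Slc16a1, the monocarboxylate transporter MCT1 (chr3:104638668-104658462 in GRCm38, plus strand), stood at 127.9, 124.0 and 123.7 CPM with 4OHT, at 190.2, 179.5 and 187.7 CPM with MU and at 193.1, 193.4 and 190.6 CPM with OE. All construct libraries were above all 4OHT libraries, with log2 fold changes of 0.57 ± 0.04 (SE) and 0.62 ± 0.04 (edgeR adjusted p = 7.91e-08 and 2.95e-08). Slc16a3, the transporter MCT4 that is known for lactate export from glycolytic cells, stood at 78.2, 81.0 and 95.1 CPM, then 69.2, 74.4 and 73.5 CPM with MU and 62.6, 64.0 and 63.9 CPM with OE. It fell by 0.23 and 0.42 on the log2 scale (adjusted p = 0.00994 and 0.000106, edgeR). Among the glucose transporters the same split was seen. Slc2a3, the high-affinity transporter GLUT3, rose from 83.7, 83.7 and 89.8 CPM to 113.6, 115.2 and 118.7 CPM with MU and 124.3, 121.2 and 118.5 CPM with OE. Slc2a1, the widely expressed GLUT1, was at 144.2, 152.4 and 164.3 CPM with 4OHT, at 139.2, 138.1 and 140.4 CPM with MU and at 126.0, 125.0 and 127.0 CPM with OE. The log2 fold changes were 0.43 and 0.50 for Slc2a3 (edgeR adjusted p = 2.78e-06 and 6.22e-07) and -0.14 and -0.29 for Slc2a1 (0.0279 and 0.00024). With MU, the call was lost in 9 of 17 alternatives for Slc2a1 and in 3 for Slc16a3, so the split is less certain there.

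Hk2 (chr6:82725025-82774454 in GRCm38, minus strand), the inducible hexokinase and the member with the largest change against 4OHT, was found at 116.6, 124.7 and 127.1 CPM with 4OHT, at 47.4, 48.9 and 51.3 CPM with MU and at 53.4, 56.8 and 53.2 CPM with OE. Its lowest 4OHT library was more than 2 times its highest construct library, and the log2 fold changes were -1.32 ± 0.05 (SE) and -1.17 ± 0.05 (edgeR adjusted p = 1.57e-10 and 3.69e-10). Hk1, the constitutive hexokinase, changed far less, by -0.25 and -0.20 (0.00428 and 0.017). At the level of phosphofructokinase, the liver-type Pfkl fell from 130.8, 149.8 and 155.1 CPM to 88.5, 92.7 and 95.03 CPM with MU and 83.1, 88.2 and 84.6 CPM with OE, and the muscle-type Pfkm fell by 0.44 and 0.38 on the log2 scale. Pfkp, the platelet-type subunit of the same enzyme, went the other way, from 61.7, 62.2 and 66.3 CPM to 75.6, 76.9 and 74.1 CPM with MU and 72.3, 76.5 and 70.5 CPM with OE (log2 fold change 0.25 and 0.21, edgeR adjusted p = 0.000764 and 0.00354).

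A split of this kind was also seen in aldolase, which cleaves the hexose into triose phosphates. Aldoa, the main form here, fell from 584.6, 603.6 and 642.7 CPM to 406.8, 408.3 and 410.1 CPM with MU and 399.5, 420.2 and 418.3 CPM with OE. Aldoc (chr11:78322968-78327781 in GRCm38, plus strand), the brain-type form, rose from 37.1, 37.1 and 38.9 CPM to 58.6, 62.3 and 61.7 CPM with MU and 67.4, 68.2 and 60.8 CPM with OE. No construct library overlapped the 4OHT range in either gene, and the log2 fold changes were -0.58 and -0.56 for Aldoa and 0.69 and 0.80 for Aldoc (edgeR adjusted p between 3.94e-08 and 1.77e-07 in these 4 tests). Tpi1, triosephosphate isomerase, fell by 0.50 and 0.53 on the log2 scale. Gpi1, which converts glucose 6-phosphate to fructose 6-phosphate, had log2 fold changes of -0.12 and -0.12, just inside the threshold with MU and just outside it with OE (edgeR adjusted p = 0.0468 and 0.0519). With OE it was called lower without 4OHT replicate 1 or MU replicate 2 (edgeR adjusted p = 0.00581 and 0.0498).

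**Figure D2:**
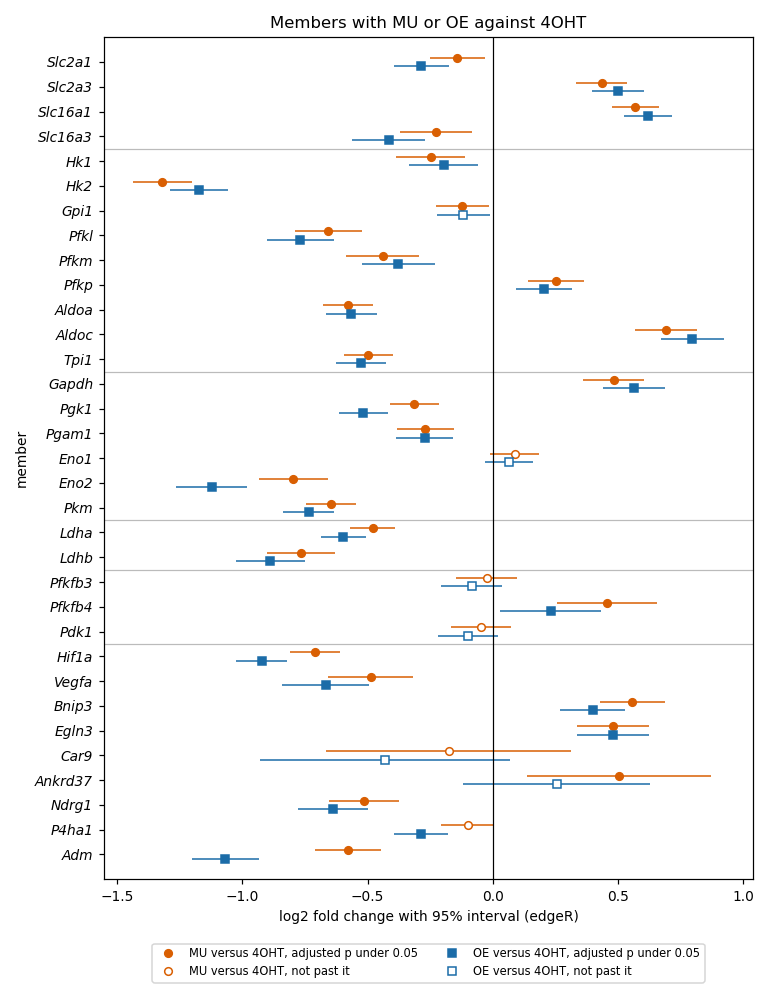
Points give the log2 fold change of each member against 4OHT with its 95% interval from edgeR, circles for MU and squares for OE, filled where the adjusted p was under 0.05; members are in rows by role. The paired points lie close together in most rows, and within transporters, phosphofructokinase and aldolase some members lie right of 0 and others left of it.

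In the lower part of the pathway, Pkm, pyruvate kinase and the member with the highest CPM, fell from 1620, 1770 and 1771 CPM to 1077, 1103 and 1118 CPM with MU and 1055, 1051 and 996 CPM with OE (log2 fold change -0.65 and -0.73, edgeR adjusted p = 4.31e-08 and 1e-08). Pgk1, phosphoglycerate kinase, fell from 407.7, 410.3 and 409.1 CPM to 326.6, 330.5 and 330.3 CPM with MU and 276.5, 302.0 and 279.2 CPM with OE. Pgam1, phosphoglycerate mutase, fell by 0.27 and 0.27 on the log2 scale. The neuronal enolase Eno2 (chr6:124760053-124769673 in GRCm38, minus strand) was at 38.5, 44.2 and 42.3 CPM with 4OHT, at 24.5, 24.3 and 23.1 CPM with MU and at 19.1, 19.5 and 18.8 CPM with OE. In Eno2 the 3 groups did not overlap at all, and the log2 fold changes were -0.80 and -1.12 (edgeR adjusted p = 1.3e-07 and 4.22e-09). Enolase 1, Eno1, was called in neither comparison (0.09 and 0.07, adjusted p = 0.118 and 0.237, edgeR), but was called higher in both without 4OHT replicate 3 (0.12 and 0.096, adjusted p = 0.00851 and 0.0301, edgeR).

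Gapdh, glyceraldehyde 3-phosphate dehydrogenase, was one of the members called higher, and this direction depended on how near-identical copies were counted. The Gapdh row held 33.2, 31.0 and 32.2 CPM with 4OHT, 46.5, 44.5 and 43.8 CPM with MU and 47.4, 49.6 and 45.6 CPM with OE, a log2 fold change of 0.48 and 0.56 (edgeR adjusted p = 5.23e-06 and 1.08e-06). A search of the transcripts found 77 genes at other loci with at least 95% identity to it over at least 300 bases. One of them, the processed pseudogene Gm13394 at chr2:28933610-28934609 (GRCm38, minus strand), is 99.9% identical to Gapdh over 1000 bases. It was listed at 395.0, 399.3 and 486.2 CPM with 4OHT, 224.8, 240.0 and 255.0 CPM with MU and 251.0, 261.6 and 266.4 CPM with OE, which is far above the Gapdh row itself. With the copies added, Gapdh stood at 474.9 ± 50.4 CPM (SD, n = 3) with 4OHT, 297.4 ± 13.7 CPM with MU and 319.6 ± 7.48 CPM with OE, and the log2 fold changes turned to -0.68 and -0.57 (edgeR adjusted p = 9.55e-07 and 4.68e-06).

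The same was seen on a smaller scale in Eno1. The pseudogene Gm4735 and the gene Eno1b, with 99.6% and 99.5% identity to it, were listed at 219.2 ± 32.4 and 178.6 ± 18.3 CPM (SD, n = 3) with 4OHT, at 123.8 ± 5.52 and 106.9 ± 1.30 CPM with MU and at 107.0 ± 5.602 and 96.3 ± 1.63 CPM with OE. With its 3 copies added Eno1 had log2 fold changes of -0.21 and -0.28 (edgeR adjusted p = 0.00364 and 0.000467). Gpi1 with its copy was no longer called with MU (-0.09, adjusted p = 0.135, edgeR). For the other 7 members with such copies, the copies held at most 3.13% of the summed CPM, and no call changed. The levels of Gapdh and Eno1 are therefore uncertain, and with copies added the counts of members were 8 higher and 20 lower with MU and 7 higher and 21 lower with OE.

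**Figure D3:**
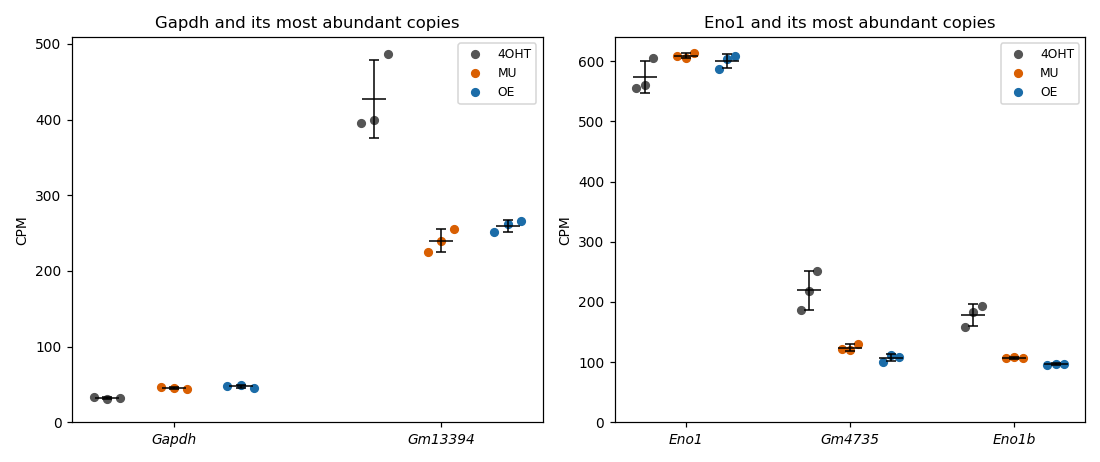
Dots give CPM in each library and bars the mean with SD (n = 3) for Gapdh and Eno1 and their most abundant near-identical copies, in grey for 4OHT, orange for MU and blue for OE. The Gapdh row is higher with the constructs and the Eno1 row overlaps between groups, while Gm13394, Gm4735 and Eno1b are lower in all construct libraries than in all 4OHT libraries.

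Lactate dehydrogenase fell in both of its subunits. Ldha, the form known for turning pyruvate into lactate, stood at 565.6, 563.5 and 581.9 CPM with 4OHT, at 401.3, 415.2 and 410.4 CPM with MU and at 372.8, 384.3 and 374.7 CPM with OE. Ldhb, the heart-type subunit, stood at 71.4, 64.7 and 62.4 CPM, then at 39.7, 38.1 and 39.0 CPM with MU and 33.4, 36.6 and 37.2 CPM with OE. The decrease was larger in Ldhb, with log2 fold changes of -0.77 and -0.89 against -0.48 and -0.60 for Ldha (edgeR adjusted p between 2.3e-08 and 2.33e-07 in these 4 tests), although the difference between the subunits was not itself tested in the model. Of the regulatory kinases, Pfkfb4, which makes the phosphofructokinase activator fructose 2,6-bisphosphate, was higher at a low level, 7.41, 7.31 and 8.31 CPM with 4OHT against 10.1, 11.1 and 10.4 CPM with MU and 9.18, 9.17 and 8.71 CPM with OE (edgeR adjusted p = 0.00075 and 0.0478). The call with OE was lost in 14 of 17 alternatives, the replicate block (adjusted p = 0.0683, edgeR) and DESeq2 (0.0588) among them. Pfkfb3, which has the same activity, and Pdk1, which inhibits pyruvate dehydrogenase, had log2 fold changes between -0.10 and -0.03 and overlapped between groups.

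Hif1a mRNA (chr12:73901375-73947530 in GRCm38, plus strand) was lower with both constructs. It was found at 474.5, 453.7 and 455.4 CPM with 4OHT, at 275.5, 274.1 and 297.1 CPM with MU and at 244.9, 240.0 and 244.9 CPM with OE, and the 3 groups did not overlap. The log2 fold changes were -0.71 ± 0.05 (SE) and -0.92 ± 0.05 (edgeR adjusted p = 1.57e-08 and 9.54e-10). The 8 members grouped here as HIF targets, apart from the glycolytic and transporter genes, did not move as a block. Adm (chr7:110627661-110629820 in GRCm38, plus strand), which encodes the vasodilator peptide adrenomedullin, fell from 75.3, 83.2 and 86.7 CPM to 53.7, 54.7 and 55.9 CPM with MU and 41.0, 37.1 and 39.0 CPM with OE. Vegfa, the angiogenic growth factor, fell by 0.49 and 0.67 on the log2 scale and Ndrg1 by 0.52 and 0.64. P4ha1, a collagen prolyl hydroxylase subunit, had log2 fold changes of -0.10 and -0.29, of which the second was called (edgeR adjusted p = 0.1 and 0.000183).

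Other HIF targets rose. Bnip3, a mitophagy receptor, went from 109.8, 103.5 and 102.9 CPM to 169.2, 143.2 and 152.5 CPM with MU and 140.0, 134.9 and 141.6 CPM with OE (log2 fold change 0.56 and 0.40, edgeR adjusted p = 2.39e-06 and 5.66e-05). Egln3, a prolyl hydroxylase that marks HIF alpha for destruction, went from 20.5, 21.4 and 20.1 CPM to 28.3, 27.7 and 30.5 CPM with MU and 27.4, 28.5 and 30.5 CPM with OE (0.48 and 0.48, adjusted p = 2.63e-05 and 2.77e-05, edgeR). Ankrd37 was low, with means of 3.81, 5.39 and 4.55 CPM in the order 4OHT, MU and OE, and rose with MU (0.50, edgeR adjusted p = 0.0219), while its difference with OE missed the threshold (0.25, adjusted p = 0.229). Car9, the carbonic anhydrase often used as a hypoxia marker, lay between 1.14 and 2.34 CPM in all 9 libraries and overlapped between groups (-0.18 and -0.43, adjusted p = 0.539 and 0.131, edgeR). Without 4OHT replicate 2 it was called lower with OE (-0.60, edgeR adjusted p = 0.0443).

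The opposite movement of related forms was expressed as a share of CPM per kilobase of the principal transcript, which allows levels of different genes to be compared. The share of Hk2 in Hk1 and Hk2 was 30.1% ± 1.29 (SD, n = 3) with 4OHT, 17.0% ± 0.094 with MU and 17.9% ± 0.415 with OE. Hk1 was thus the more abundant hexokinase of the pair in all groups. In aldolase, Aldoc held 3.24% ± 0.0742 with 4OHT, 7.48% ± 0.208 with MU and 7.93% ± 0.555 with OE, so that Aldoa remained the main form. Pfkp held 18.5%, 28.5% and 28.3% of phosphofructokinase in the same order. Pfkl had the largest share in all groups and went from 47.1% to 38.6% and 36.6%. Pfkm held 34.4%, 32.8% and 35.1%, so Pfkl and Pfkm were close with OE. For the transporters, Slc2a3 rose from 31.5% to 40.7% and 44.2% of Slc2a1 and Slc2a3, and Slc16a1 from 59.2% to 71.5% and 74.8% of Slc16a1 and Slc16a3.

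The sums of the families are given as a description, since no exact permutation test of 3 against 3 libraries can go below p = 0.1. The summed level of Slc2a1 and Slc2a3 was 68.8 ± 3.92, 72.0 ± 0.944 and 69.3 ± 0.649 CPM per kilobase in 4OHT, MU and OE (two-sided exact permutation p = 0.4 and 0.8 against 4OHT). Slc16a1 and Slc16a3 together were at 47.8, 58.7 and 58.1 CPM per kilobase. Hexokinase went from 74.2 to 52.7 and 55.2, phosphofructokinase from 82.7 to 63.9 and 62.4, aldolase from 417.4 to 292.1 and 296.6 and lactate dehydrogenase from 373.7 to 261.5 and 241.1 CPM per kilobase. In these last 5 families the construct libraries did not overlap those of 4OHT, and the exact permutation p was 0.1. The enolase rows, with Eno1 taken without its copies, summed to 297.9, 309.2 and 303.0 CPM per kilobase (exact permutation p = 0.4 and 0.7). With its copies added, Eno1 alone was at 972.7 ± 75.1, 840.9 ± 9.00 and 804.1 ± 18.5 CPM (SD, n = 3). The level sum of enolase thus depends on the copies. Pfkfb3 with Pfkfb4 summed to 14.1, 14.7 and 13.8 CPM per kilobase (exact permutation p = 0.4 and 0.6). Within the enolases Eno2 went from 5.01% to 2.78% and 2.26%, with the Eno1 row taken without its copies. Ldhb went from 13.6% to 11.4% and 11.4% of lactate dehydrogenase.

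**Figure D4:**
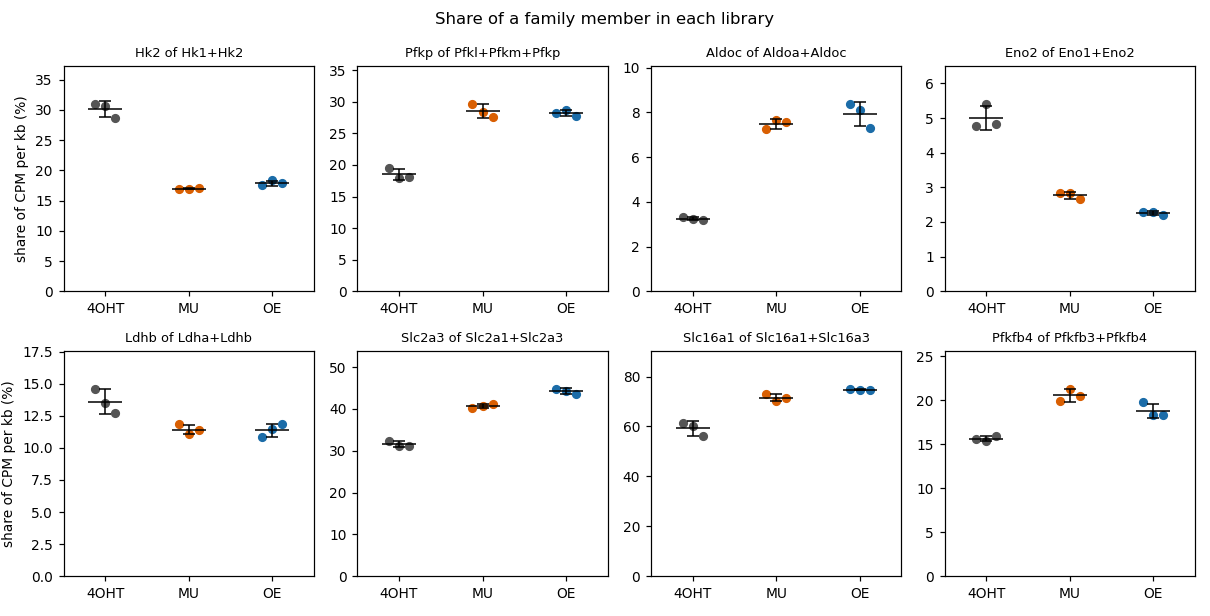
Dots give the share of a family member in the summed CPM per kilobase of the family members on the list, in percent, in each library, and bars the mean with SD (n = 3); the axes start at 0 and differ between panels. Pfkp, Aldoc, Slc2a3, Slc16a1 and Pfkfb4 hold a larger share in every MU and OE library than in any 4OHT library, and Hk2, Eno2 and Ldhb a smaller one.

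MU and OE, read as the catalytically dead and the wild-type construct, were also compared directly. Prmt5 stood at a mean of 146.1 CPM with MU and 1076 CPM with OE. Catalytic activity and transcript level of the construct therefore cannot be told apart in this comparison. Few genes differed, with 2.12% of all genes tested called higher with MU and 1.06% called lower. Of the members, 4 were higher with MU (11.8%) and 0 lower by edgeR. DESeq2 also called 0 lower, and 1 member, Hk2, was lower at an unadjusted p under 0.05. The 4 were Adm at a log2 fold change of 0.49 ± 0.06 (SE), Eno2 at 0.33 ± 0.06, Hif1a at 0.21 ± 0.05 and Pgk1 at 0.20 ± 0.05 (edgeR adjusted p = 0.000385, 0.0119, 0.0204 and 0.0247). For all of them every MU library lay above every OE library and below every 4OHT library. Adm, for example, was at 75.3 to 86.7 CPM with 4OHT, 53.7 to 55.9 CPM with MU and 37.1 to 41.0 CPM with OE.

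Of the feeder fibroblast markers, 13 of 16 were also higher with MU than with OE, and 9 of the 15 macrophage rows were lower. Over all genes tested these shares were 2.12% higher and 1.06% lower. Of all members 24 of 34 had a positive difference (70.6%) against 52.0% of all genes, with a median log2 fold change of 0.07 against 0.01. All 9 of Hif1a and the members grouped here as HIF targets lay above 0, from 0.002 for Egln3 to 0.49 for Adm. Of these, 7 did not pass the test. The glycolytic genes and transporters, many of them also HIF targets, were mixed. Above 0 were 3 of 10 upper glycolysis rows, 5 of 6 lower glycolysis rows and 2 of 4 transporters. Both lactate dehydrogenase rows and all 3 regulatory kinases were also above 0. The libraries of MU and OE did not overlap for 16 members (47.1%), against 25.9% of all genes. For this comparison no share of genes called or not overlapping was taken among genes of at least 10 CPM, the level of most members. None of the 8 members that were higher with both constructs than with 4OHT passed the threshold between constructs, and the largest difference among them was 0.22 in Pfkfb4 (95% interval 0.03 to 0.42, libraries apart), no smaller than those of Hif1a and Pgk1. The 95% intervals of the MU to OE log2 fold change were -0.14 to 0.04 for Slc16a1, -0.17 to 0.03 for Slc2a3, -0.23 to 0.02 for Aldoc, 0.03 to 0.29 for Bnip3, -0.14 to 0.14 for Egln3, -0.06 to 0.16 for Pfkp and -0.20 to 0.04 for the Gapdh row. Hk2 had an interval of -0.26 to -0.03, on the side of lower values with MU, and did not pass the threshold (adjusted p = 0.232, edgeR).

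The number of members called between the constructs rested on single libraries. It was 1 without MU replicate 1, MU replicate 2, OE replicate 1 or OE replicate 3, 2 without MU replicate 3, 3 without OE replicate 2 and 8 without 4OHT replicate 3. Adm was called in each of these fits.

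**Figure D5:**
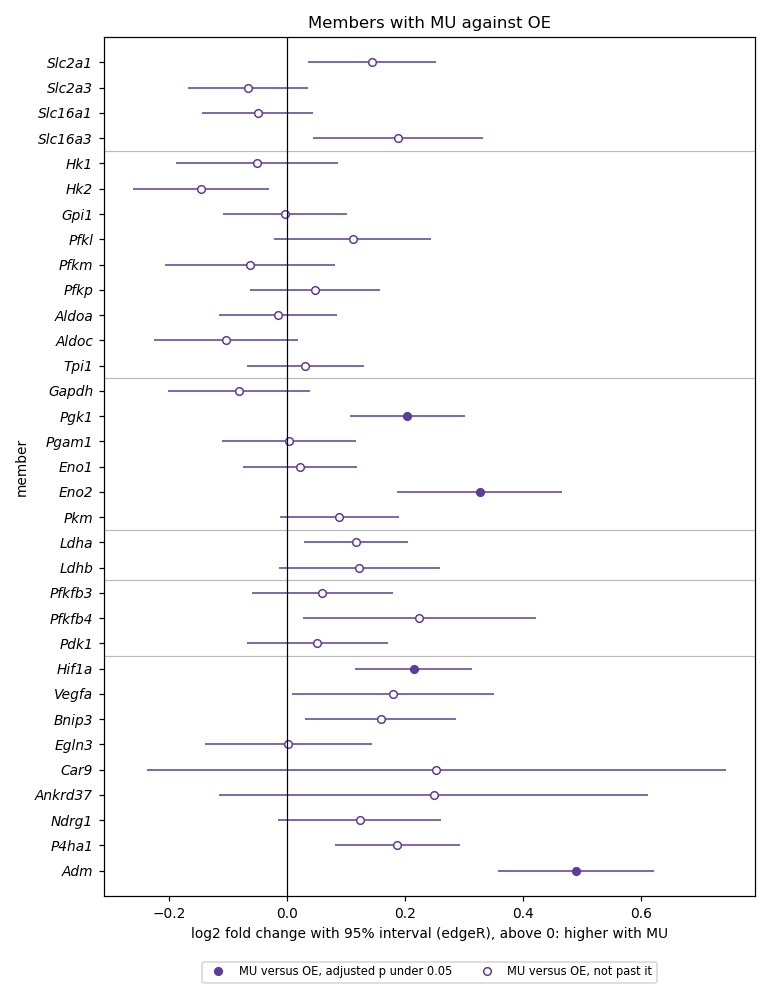
Points give the log2 fold change of each member in MU against OE with its 95% interval from edgeR, filled where the adjusted p was under 0.05; values right of 0 are higher with MU. Adm, Eno2, Hif1a and Pgk1 are the filled points, and all rows from Hif1a to Adm at the bottom lie at or right of 0.

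The other genes of these pathways were taken as lists. Of 35 other isoforms and regulators of glycolysis and pyruvate use that were tested, 15 were higher and 11 lower with MU (42.9% and 31.4%, against 29.5% and 26.5% of all genes), and 15 were higher and 10 lower with OE (42.9% and 28.6%, against 29.9% and 27.9%). The shares called lower lay near the background. Slc2a12, a further glucose transporter, rose from 0.731 to 2.28 and 2.57 CPM (log2 fold change 1.64 and 1.81), and Slc16a7, the monocarboxylate transporter MCT2, from 0.900 to 2.10 and 3.13 CPM (1.22 and 1.79). Pgm1, phosphoglucomutase, fell from 20.3 to 6.31 and 6.31 CPM (-1.69 and -1.68). Pdk4, a pyruvate dehydrogenase kinase, was lower with both constructs (-0.56 and -1.09) and higher with MU than with OE by 0.53. A list made for isoforms of glycolytic enzymes known from male germ cells had 5 of 9 genes tested. Of these, 3 were higher and 0 lower with each construct by edgeR, where 29.5% and 29.9% of all genes were called higher. DESeq2 also gave 0 lower, as did an unadjusted p under 0.05. With 5 genes this is a description. Among them Ldhc, the germ cell lactate dehydrogenase, rose from 8.36 to 21.8 and 22.5 CPM, a log2 fold change of 1.38 and 1.43. Gapdhs lay at 0.402 to 0.583 CPM on average and Hk1os at 0.464 to 0.719 CPM. Neither of these, named here after their values were seen, was called. By its symbol Hk1os is an opposite-strand transcript of the Hk1 locus, not an enzyme isoform, although it counts among the 5 tested.

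Of 14 components of the HIF pathway, 6 were higher and 1 lower with MU (42.9% and 7.14%) and 8 were higher and 1 lower with OE (57.1% and 7.14%). Of all genes tested, 29.5% and 26.5% were called higher and lower with MU and 29.9% and 27.9% with OE. Among genes of at least 10 CPM the shares were 37.3% and 37.0% with MU and 39.4% and 36.8% with OE. The share higher with MU lay near that of such genes. The named ones were described after their values were seen. Hif3a, an alpha subunit, rose from 20.2 to 35.7 and 34.1 CPM (0.82 and 0.76), and Arnt, the partner of the alpha subunits, by 0.21 and 0.19. The hydroxylase Egln1 rose by 0.34 and 0.31, the ubiquitin ligase subunit Vhl by 0.27 and 0.26 and the asparagine hydroxylase Hif1an by 0.34 and 0.36, whereas Egln2 was lower by 0.20 and 0.20 on the log2 scale.

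Of 39 other hypoxia-induced genes tested, 14 were higher and 15 lower with MU, and 11 were higher and 21 lower with OE. With MU the shares were 35.9% and 38.5%, above the 29.5% and 26.5% of all genes and near the 37.3% and 37.0% of genes of at least 10 CPM. With OE they were 28.2% and 53.8%, against 29.9% and 27.9% of all genes and 39.4% and 36.8% of genes at that level. The list also held genes below 10 CPM. Slc6a8, the creatine transporter, fell from 121.6 to 24.8 and 21.7 CPM (-2.29 and -2.48), Hmox1, haem oxygenase, from 399.9 to 112.4 and 113.7 CPM (-1.83 and -1.81) and Ier3 from 116.0 to 46.1 and 35.7 CPM (-1.33 and -1.70). Igfbp3, a binding protein of insulin-like growth factors, rose from 26.1 to 99.1 and 63.5 CPM (1.93 and 1.28) and was higher with MU than with OE by 0.64. Lox, which cross-links collagen, was higher with MU than with OE by 0.49. In the comparison of the constructs 6 of these 39 genes were higher with MU (15.4%, against 2.12% of all genes). No share among genes of at least 10 CPM was taken for the constructs. By edgeR 0 of the 39 were lower, with 0 lower by DESeq2 and 1 at an unadjusted p under 0.05 (Epo). The pentose phosphate pathway, which branches off at glucose 6-phosphate, had 4 of 10 genes higher and 5 lower with MU and 4 higher and 4 lower with OE, where 29.5% and 26.5% of all genes were called with MU and 29.9% and 27.9% with OE, so that with 10 genes the counts cannot be set apart from the background. Its transketolase Tkt fell from 166.8 to 92.7 and 110.5 CPM, and it was lower with MU than with OE by 0.25 (log2 fold change -0.25, edgeR adjusted p = 0.0286).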

How the data were processed

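RNA-seq libraries of 4OHT-treated Prmt5-knockout SSCs were analysed in 3 groups of 3, taken from the sample labels. Per the study's methods and the submitters' processing notes, BBmap and Trimmomatic 0.39 were used for trimming, HISAT2 2.2.1 for alignment to GRCm38 and StringTie 2.2.1 for quantification. The authors deposited whole-number counts for 53801 genes without normalization. The treatment of strand and of reads with several alignments is not given in the sources used here. Values of 4 counts were 1.35 to 1.84 times as frequent as the mean of values of 3 and 5, so 1 read pair was read as some 4 counts. Totals were 78751996 to 365719548 counts per library.

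The main test was edgeR 4.0.16 in R 4.3.3: filterByExpr by group (minimum count 10, minimum total 15), which left 22452 genes, TMM factors of 0.940 to 1.04, and a quasi-likelihood model of group over all 9 libraries (common biological coefficient of variation 0.155). CPM are scaled by TMM. Benjamini-Hochberg adjustment ran over all genes, with calls at an adjusted p under 0.05. The steps were tested on simulated counts with genes changed in MU only and a smaller spread than in these data, scored for MU versus OE. That setting does not cover the comparisons with 4OHT, where far more genes differ. CPM per kilobase used the principal transcript of each gene in the annotation of GRCm38, and shares were compared by two-sided exact permutation tests (Python 3.11.15, scipy 1.17.1). Copies were found by aligning transcripts, with at least 95% identity over at least 300 bases. Motifs were searched as letters on both strands of RefSeq promoter windows.

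All 33 symbols are named. From the other pathway lists the text names, per comparison, the 3 genes with the largest change in each direction among called genes whose groups did not overlap and whose mean reached 1 CPM. Beyond this rule, HIF pathway components, Gapdhs, Hk1os and Epo are named after their values were seen. The members and lists were chosen with earlier results of these data known. Alternatives were other scalings, DESeq2 1.42.0, no filter, counts divided by 4, 6 libraries, a replicate block, a test against a fold of 1.5, leaving out each library, and copies added, the last chosen after seeing the data.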

Additional observations from a re-analysis of the deposited data

How the results depend on the processing

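The counts of members higher and lower against 4OHT moved by less than 1.5 times under other size factors, library totals, DESeq2, no filter, counts divided by 4, 6 libraries and the copies added. Under a test against a fold of 1.5 they were 0 higher and 4 lower with MU, 1 higher and 7 lower with OE, and 0 higher for MU versus OE. The members higher in MU versus OE were 9 with only the 6 libraries compared. Leaving out 1 library at a time gave 8 to 9 higher and 16 to 19 lower with MU, 7 to 9 higher and 19 to 20 lower with OE, and 1 to 8 higher and 0 to 0 lower for MU versus OE. Over all genes 712 were called for MU versus OE, against 1140 by DESeq2, 1565 with the 6 libraries, 34 against a fold of 1.5 and 400 to 1099 with 1 library left out, and against a fold of 1.5 the calls fell from 12571 to 5059 with MU and from 12967 to 5645 with OE. Library totals alone shift the median of all genes to 0.16 with MU and 0.11 with OE, and no filter shifts it to 0.095 with MU.

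Members near 0 changed sign. With library totals P4ha1, Pfkfb3 and Pdk1 stood at 0.012, 0.088 and 0.064 with MU, and Pfkfb3 at 0.0037 with OE. Without the filter Pfkfb3 and Pdk1 stood at 0.037 and 0.014, and leaving out 1 library at a time Pfkfb3 ranged from -0.0627 to 0.0137, positive without 4OHT replicate 3. With copies added Eno1 and Gapdh turned to -0.21 and -0.68 with MU and -0.28 and -0.57 with OE. Except for the copies, which add counts by construction, the cause was not tested.

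Replicate numbers are shared between groups, but same-numbered libraries did not deviate together (correlations of -0.0195 to 0.0443 over 9 pairs), so the numbers were not taken as pairs. With the replicate block the counts were 9 higher and 19 lower with MU, 7 and 20 with OE, and 5 and 0 for MU versus OE.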
